A study of Mus musculus with 3 samples.

Results

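The netrin guidance genes examined here were the 2 secreted netrins Ntn1 and Ntn4, the secreted antagonist Draxin, and the receptors Dcc, Neo1, Unc5a, Unc5b, Unc5c and Unc5d. Every non-control probe whose accession or deposited gene name pointed to one of these 9 genes was taken, and this gave 14 probes among the 55681 non-control probes of the array. All 14 were named through a RefSeq accession, 4 of the genes had more than 1 probe, and 13 of the 14 probes, standing for all 9 genes, were bright enough to be tested. The RNA came from the brain dorsal cortex of mouse pups killed at postnatal day 4 and was hybridised to 3 two-colour Agilent arrays. On each array the Cy5 channel held RNA labelled as Brpf1-deficient and the Cy3 channel RNA labelled as wild type, and the pairs were numbered 1 to 3. Neither sample was treated, and 350 ng of total RNA went into each amplification. The strain, the allele, any Cre driver, the sex of the pups and the litters behind the pairs were not given in the sources used here. The p-values below therefore measure only the spread between these arrays. No dye swap was made, so a dye effect and a genotype effect cannot be told apart. Brpf1 encodes a scaffold protein of histone acetyltransferase complexes.

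Netrins are laminin-related cues that steer growing axons. Axons that carry DCC or its relative neogenin are drawn towards netrin-1, while axons that also carry an Unc5 receptor are repelled by it, and draxin binds both DCC and netrin. In the mouse forebrain Ntn1, Dcc and Draxin are required for the corpus callosum to form, and neogenin also serves as the receptor of the repulsive guidance molecules.

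Among 59305 non-control spots per array, 57.9% to 58.2% exceeded background clearly in Cy5 and 59.9% to 61.0% in Cy3, and 0 were saturated. The log2 ratios of arrays 1 and 3 correlated across tested probes at r = 0.703, those of arrays 1 and 2 at r = 0.50 and those of arrays 2 and 3 at r = 0.485, where probes are not independent replicates. Of 10 genes that mark cortical identity, 9 were well above background in both channels on all 3 arrays. The exception was Emx1, a transcription factor of the dorsal telencephalon, which was above background in Cy5 on 2 of 3 arrays and had log2 ratios of 0.65, -2.72 and -2.65 on arrays 1, 2 and 3 (limma adjusted p = 0.0959). Array 1 thus went the other way from arrays 2 and 3 for this gene, and whether its samples match those of the others in genotype is not known here. Means of the netrin genes that moved by over 1.5 times without 1 array are given with and without it, for ratios that round to 0.10 or more in size.

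The targeted gene was examined first. On arrays 1, 2 and 3 the log2 ratio of Cy5 over Cy3 at the Brpf1 probe was 0.62, 0.73 and 0.96, which averages to 0.77 ± 0.17 (SD, n = 3 arrays, limma adjusted p = 0.00452). It was therefore brighter in the channel labelled Brpf1-deficient, against the label, and the position of its probe relative to the deletion is unknown. In the authors' deposited table Brpf1 has a log fold change of -0.80, the opposite sign. Which channel that table places over the other was not given, so a differing sign need not be a differing result. All 11 probes of the netrin genes listed in the authors' deposited table have the opposite sign there, and so do all 5568 probes called here. Values are therefore given by channel, as Cy5 (labelled Brpf1-deficient) over Cy3 (labelled wild type), and which genotype a direction belongs to is not settled.

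The 3 receptors below, chosen after their values were seen, were those with a single probe and a 95% interval of the mean ratio that excluded 0. Their RefSeq promoter windows, from 250 bases before to 50 bases after the gene start, are shown so that the letters at their starts can be compared. BRPF1 complexes are known to act on histones at promoters, and CG pairs mark the CpG island promoters common among broadly used and developmental genes. Each sequence runs 5′ to 3′ on the gene's own strand in build GRCm38.p6, with every CG pair in capitals. Windows were kept for 6 of the 9 genes, namely Ntn4, Draxin, Neo1, Unc5a, Unc5b and Unc5c. A chromosome was left out of this step, so a gene without a window here may still have a promoter entry.
Neo1, chr9:59036392-59036691, minus strand: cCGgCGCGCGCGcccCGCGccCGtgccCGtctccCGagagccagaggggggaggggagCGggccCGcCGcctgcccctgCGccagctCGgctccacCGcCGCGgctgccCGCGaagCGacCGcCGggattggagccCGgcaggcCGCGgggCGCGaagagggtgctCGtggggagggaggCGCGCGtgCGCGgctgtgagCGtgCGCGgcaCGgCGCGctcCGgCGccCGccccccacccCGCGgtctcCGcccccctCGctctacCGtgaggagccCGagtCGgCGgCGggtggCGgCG
Unc5a, chr13:54949161-54949460, plus strand: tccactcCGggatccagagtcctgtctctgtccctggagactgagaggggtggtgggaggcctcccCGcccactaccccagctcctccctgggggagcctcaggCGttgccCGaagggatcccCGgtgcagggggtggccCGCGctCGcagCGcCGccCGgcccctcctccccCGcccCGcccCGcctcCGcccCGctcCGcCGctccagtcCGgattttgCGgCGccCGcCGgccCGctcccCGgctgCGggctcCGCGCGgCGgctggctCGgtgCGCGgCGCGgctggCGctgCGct
Unc5b, chr10:60831532-60831831, minus strand: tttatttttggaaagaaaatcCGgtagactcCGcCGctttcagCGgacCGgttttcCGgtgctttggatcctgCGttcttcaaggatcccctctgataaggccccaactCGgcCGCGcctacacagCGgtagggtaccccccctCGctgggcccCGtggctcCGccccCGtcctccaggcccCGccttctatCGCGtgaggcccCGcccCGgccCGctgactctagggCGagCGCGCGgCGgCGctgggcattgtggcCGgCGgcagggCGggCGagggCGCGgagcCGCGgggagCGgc
The Neo1 window held 54 CG pairs at 82.7% G or C, and 0.347% of the 32851 promoters in the table held at least as many. The Unc5a window held 37 CG pairs at 78.3% G or C, a number that 5.58% of promoters reached. The Unc5b window held 36 CG pairs at 69.7% G or C, which 6.23% of promoters reached. Among all promoters the median was 7 CG pairs at 52.7% G or C, and 94.6% held at least 1. All 3 windows were thus rich in CG, but so were the other windows kept, with 39 CG pairs for Draxin, 31 for Ntn4 and 24 for Unc5c. The motif TATAAA, searched on both strands, was in 13.6% of all promoters and in none of the 3 windows.

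Across the netrin genes, 1 of 13 tested probes passed a limma adjusted p of 0.05, beside 5568 of 32981 probes over the whole array (16.9%). The probe was that of Neo1, brighter in Cy3, where 9.39% of all tested probes were called in that direction. No member probe was called brighter in Cy5, beside 7.49% of all tested probes, and 1 had an unadjusted p under 0.05 in that direction, against 3 in the other. These 4 of 13 stand beside 37% of all tested probes with an unadjusted p under 0.05. Over the array, 44.4% of the calls were brighter in Cy5, and 80.4% with median centring in place of loess. With 1 probe per gene, 1 of the 9 genes was called, beside 17.1% of all genes. The members' count thus lay below the array's share, and 9 of the 13 ratios were below 0, beside 52.3% of all tested probes. The median log2 ratio of the 13 probes was -0.09, against -0.01 for all tested probes, and the median size of a ratio was 0.14 in both. Levels of the channels did not overlap at 5 of the 13 probes, all 5 of them higher in Cy3, beside 36% of all tested probes in either direction. Of the 32981 tested probes, 6686 did not overlap with Cy3 higher and 5194 with Cy5 higher. In bulk tissue, fewer cells of a type and less RNA per cell cannot be told apart.

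**Figure D1:**
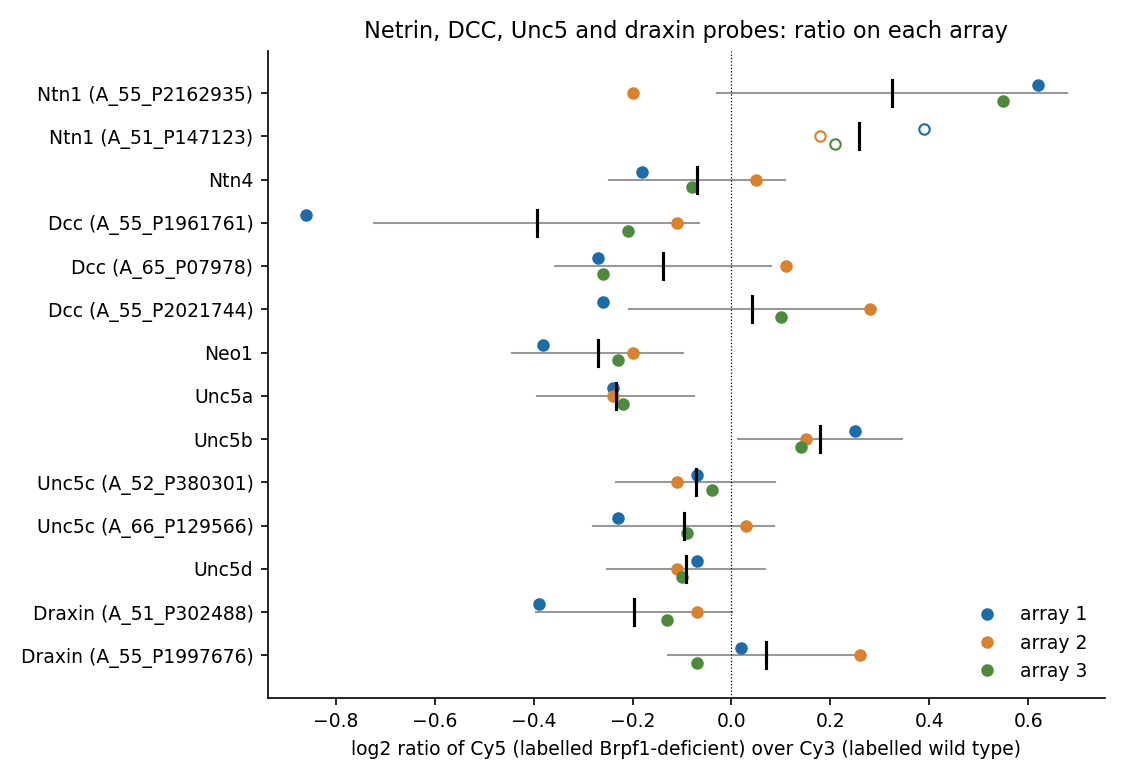
Log2 ratio of Cy5 over Cy3 (x axis) of the 14 netrin, DCC, Unc5 and draxin probes (rows) on arrays 1, 2 and 3 (coloured points). Black ticks are means, grey lines are 95% intervals of the limma fit, and open points mark the Ntn1 probe that was too dim to be tested. Neo1 and Unc5a lie below 0 and Unc5b above 0 on every array, while 1 Ntn1 probe and 1 Dcc probe spread widely over the arrays.

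Ntn1, the secreted cue that gives the pathway its name, had 2 probes, of which 1 was tested and did not pass and the other was at background. At probe A_55_P2162935 the normalised log2 intensity was 8.61, 8.46 and 8.64 in Cy5 on arrays 1, 2 and 3, against 7.99, 8.65 and 8.10 in Cy3. Cy5 was the brighter channel on arrays 1 and 3 and Cy3 on array 2, so the channels overlapped. The log2 ratios were 0.62, -0.20 and 0.55, with a mean of 0.32 ± 0.45 (SD, n = 3 arrays, 95% interval -0.03 to 0.68, limma adjusted p = 0.162). Without array 2 the mean was 0.58 with a limma adjusted p of 0.000405, and without array 1 or array 3 it was 0.18 or 0.21 and did not pass. The Ntn1 ratio therefore rests on which arrays enter, with array 2 alone on the other side of 0.

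The other Ntn1 probe, A_51_P147123, was not well above background in either channel on any array. Its raw median signal was 172.5 to 180 in Cy5 over a local background of 99.5 to 130.5, and 87 to 95 in Cy3 over a background of 39.5 to 60. Its ratios of 0.39, 0.18 and 0.21 were above 0 on all 3 arrays, but no fold is given for a probe at background. In the authors' deposited table this probe has a log fold change of -0.89 and an adjusted p of 0.269, the lowest adjusted p there of any probe of these genes.

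Ntn4, a netrin found in basement membranes, was close to equal in the channels. Its probe had 7.87, 8.08 and 7.83 log2 units in Cy5 on the 3 arrays, against 8.05, 8.03 and 7.91 in Cy3. The channels overlapped, and the mean log2 ratio was -0.07 ± 0.12 (SD, n = 3 arrays, 95% interval -0.25 to 0.11, limma adjusted p = 0.54). Its ratios fell on both sides of 0, at -0.18, 0.05 and -0.08.

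Draxin, the secreted protein that binds DCC and netrin, gave different ratios at its 2 probes. Probe A_51_P302488 had 9.10, 9.46 and 9.39 log2 units in Cy5, against 9.49, 9.53 and 9.53 in Cy3. Every Cy5 value lay under every Cy3 value, with the widest gap on array 1. The mean log2 ratio was -0.20 ± 0.17 (SD, n = 3 arrays, 95% interval -0.40 to 0.00, limma adjusted p = 0.138). Probe A_55_P1997676 had ratios of 0.02, 0.26 and -0.07, with a mean of 0.07 ± 0.17 and a limma adjusted p of 0.576. The first probe's ratio was below the second's on each array, by 0.41, 0.33 and 0.06, so the probes disagree in sign and neither passed. Without array 1 the first probe had a mean of -0.10.

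**Figure D2:**
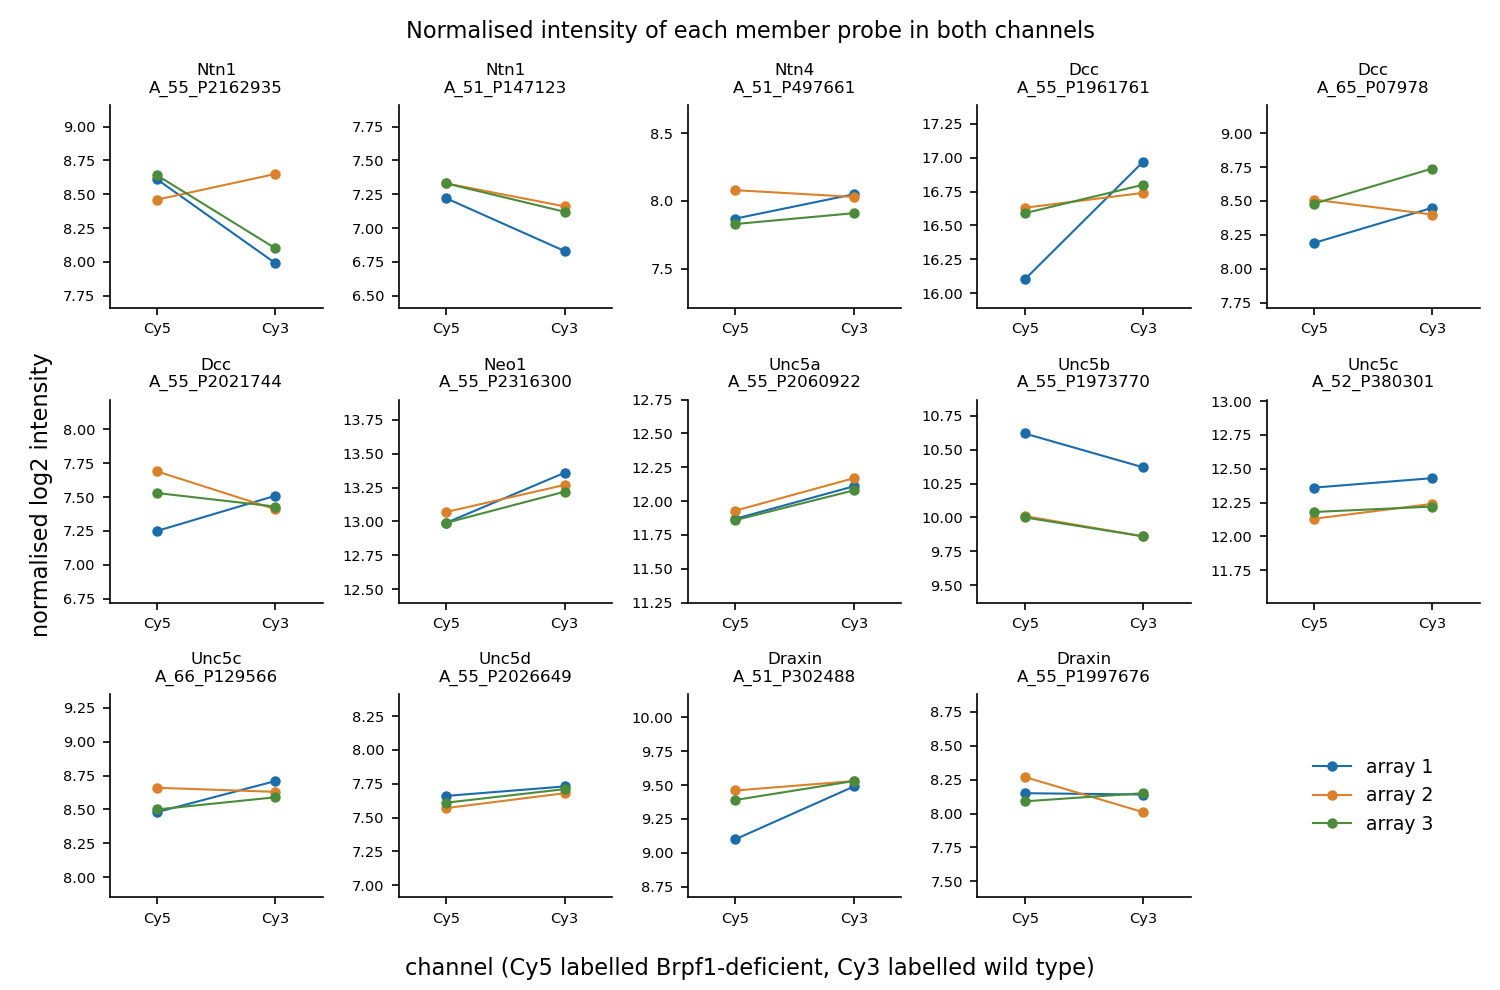
Normalised log2 intensity (y axis, a range of equal width in each panel) of each probe in Cy5 and Cy3 (x axis), with a line joining the channels of an array. Levels are not comparable between panels because each probe has its own response. The lines of Neo1, Unc5a and Unc5d run the same way on all 3 arrays, and Unc5b runs the opposite way with array 1 high in both channels. The lines of Ntn1 probe A_55_P2162935 cross.

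Among the receptors, Dcc, the main attractive receptor of netrin-1, was measured by 3 probes, none of which passed. Probe A_55_P1961761 was brighter than 99.1% of the tested probes. It had 16.10, 16.63 and 16.59 log2 units in Cy5, against 16.97, 16.74 and 16.80 in Cy3. Every Cy5 value was under every Cy3 value, and array 1 stood apart with the lowest Cy5 and the highest Cy3 value. The log2 ratios were -0.86, -0.11 and -0.21, with a mean of -0.39 ± 0.41 (SD, n = 3 arrays, 95% interval -0.72 to -0.07, limma adjusted p = 0.0893). No other tested member probe had a mean further from 0, and the spread between arrays was as large as the mean itself. Without array 1 the mean was -0.16, without array 3 it was -0.49, and without array 2 it was -0.54, which passed at a limma adjusted p of 0.00247.

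The scale of this very bright Dcc probe depended on how intensity was handled. The 501 tested probes nearest to it in intensity had a median ratio of 0.24. Centring ratios within bins of intensity moved the probe to -0.56 (limma adjusted p = 0.0462), and median centring moved it to 0.15. Its direction thus turned with the normalization.

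The other Dcc probes were dimmer. Probe A_65_P07978 had ratios of -0.27, 0.11 and -0.26, with a mean of -0.14 ± 0.22 (SD, n = 3 arrays, limma adjusted p = 0.315). Probe A_55_P2021744, above background in Cy5 on 2 of 3 arrays, had ratios of -0.26, 0.28 and 0.10, with a mean of 0.04 ± 0.28 (SD, n = 3 arrays, limma adjusted p = 0.799). All 3 Dcc probes had their lowest ratio on array 1, though probe A_65_P07978 was nearly as low on array 3. Both dimmer probes were above 0 on array 2. Probe A_65_P07978 had means of -0.07, -0.26 and -0.08 without array 1, 2 and 3, and probe A_55_P2021744 turned to -0.08 without array 2.

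Neo1 encodes neogenin, the DCC relative that binds netrins and the repulsive guidance molecules. It had 12.99, 13.07 and 12.99 log2 units in Cy5, against 13.36, 13.27 and 13.22 in Cy3. The channels did not overlap, and Cy3 was brighter on every array: the log2 ratios of -0.38, -0.20 and -0.23 averaged -0.27 ± 0.09 (SD, n = 3 arrays, 95% interval -0.44 to -0.10), 1.21-fold brighter in Cy3, with a limma adjusted p of 0.0459. Neo1 was the one member called, by a narrow margin: it stayed below 0 in all 11 alternatives but passed in 4 of them. With median centring its mean was -0.13 (limma adjusted p = 0.349). Leaving out any 1 array ended the call, with means of -0.22, -0.31 and -0.29 without array 1, 2 and 3. Among 4896 tested probes of other named genes within 1 log2 unit of its mean intensity, those whose 3 ratios lay nearest to Neo1 were Faf2, Zmym4 and Socs2, at distances of 0.0132, 0.0181 and 0.0271 log2 units. With 3 arrays and so many candidates, such closeness is a description only.

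The Unc5 genes encode the repulsive netrin receptors, which carry a death domain inside the cell, and none of their 5 probes passed. Unc5a had 11.87, 11.93 and 11.86 log2 units in Cy5, against 12.11, 12.17 and 12.08 in Cy3. The channels did not overlap, and the ratios of -0.24, -0.24 and -0.22 were the most even over arrays of any member. They averaged -0.23 ± 0.01 (SD, n = 3 arrays, 95% interval -0.39 to -0.08), and its limma adjusted p of 0.0544 missed the threshold. With median centring the mean was -0.15. The adjusted p was 0.0439 where the prior spread was allowed to follow intensity, the 1 alternative of 11 in which Unc5a passed.

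Unc5b, known also from the tips of growing blood vessels, was the one Unc5 gene on the other side of 0. It had 10.62, 10.01 and 10 log2 units in Cy5, against 10.37, 9.86 and 9.86 in Cy3. Array 1 was high in both channels, so the channels overlapped over arrays, yet Cy5 was the brighter channel within each array. The ratios were 0.25, 0.15 and 0.14, with a mean of 0.18 ± 0.06 (SD, n = 3 arrays, 95% interval 0.01 to 0.34, limma adjusted p = 0.11). Unc5b stayed above 0 in all 11 alternatives and passed in 0 of them, with limma adjusted p-values between 0.0714 and 0.28, against an unadjusted p of 0.0379 in the reported fit.

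Unc5b also marks endothelium, so the endothelial list stands beside it. Of 14 tested probes of endothelial genes, 3 were called brighter in Cy5 and 0 in Cy3, beside 7.49% and 9.39% of all tested probes. An unadjusted limma p under 0.05 was reached at 4 and 1, beside 37% of all tested probes. The 3 calls became 1 without array 1, without array 3 or with an offset of 16, and 0 with the processed signals. Their array medians were 0.08, 0.11 and 0.19, all 11 genes were above background in both channels, and their summed intensity was 58880 to 65240 in Cy5 and 51220 to 52380 in Cy3. The part of these cells in the Unc5b ratio was not tested.

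Unc5c, the receptor altered in the rostral cerebellar malformation mouse, had similar small ratios at its 2 probes. Probe A_52_P380301 had a mean of -0.07 ± 0.03 (SD, n = 3 arrays, 95% interval -0.23 to 0.09, limma adjusted p = 0.474). Probe A_66_P129566 had a mean of -0.10 ± 0.13 (SD, n = 3 arrays, 95% interval -0.28 to 0.09, limma adjusted p = 0.40). Neither probe differed from 0 beyond its interval, and the first crossed to 0.02 with median centring. The second had -0.03 without array 1 and -0.16 without array 2.

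Unc5d, known in the mouse from migrating upper-layer neurons, was dim, with 7.66, 7.57 and 7.61 log2 units in Cy5 against 7.73, 7.68 and 7.71 in Cy3. The channels did not overlap, but the gap was narrow: the mean ratio was -0.09 ± 0.02 (SD, n = 3 arrays, 95% interval -0.25 to 0.07, limma adjusted p = 0.357). With the processed signals it was -0.33 (limma adjusted p = 0.0697), so the size at this dim probe depended on the processing. A small spread over 3 arrays did not by itself make a call, since the fit borrows its variance from all probes.

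**Figure D3:**
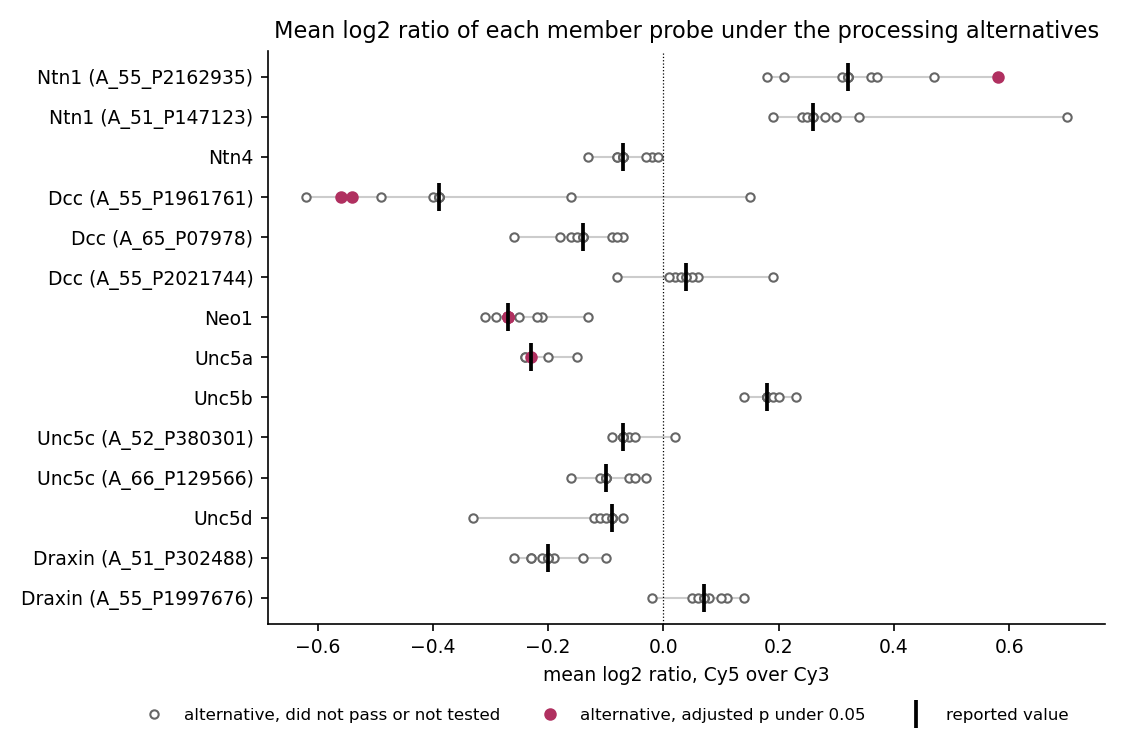
Mean log2 ratio of Cy5 over Cy3 (x axis) of each member probe (rows) in the reported fit (black ticks) and under the processing alternatives (circles, filled where the limma adjusted p was under 0.05). Unc5b and both Ntn1 probes stay above 0, Neo1, Unc5a and Unc5d stay below 0, and 1 Dcc probe ranges from -0.62 to 0.15.

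Ntn1 and Dcc varied from array to array, and lists for neighbouring brain regions did so too. Striatal genes had median ratios of 0.82, 0.21 and 0.53 on arrays 1, 2 and 3. Of their 15 tested probes 7 were called brighter in Cy5, beside 7.49% of all tested probes, and 0 in Cy3. An unadjusted limma p under 0.05 was reached at 11 and 0, beside 37% of all tested probes. The 7 calls became 5 without array 1 or array 3, 9 without array 2 and 0 with the processed signals. All 11 striatal genes were above background in both channels, with a summed intensity of 91220 to 99480 in Cy5 and 43330 to 78710 in Cy3. The tested Ntn1 probe was, like this list, high on arrays 1 and 3 and low on array 2. That order is not particular to striatal genes. Medians of marker lists for microglia, pericytes, oligodendrocytes, astrocytes and meninges were also lowest on array 2. So was that of deep-layer neurons, by a narrow margin (0.22, 0.18 and 0.21). The subplate median was equally low on arrays 2 and 3 (0.17), and those of the other marker lists were not lowest on array 2. Thalamic genes had medians of -0.30, 0.11 and 0.05, with 2 of 19 tested probes called brighter in Cy5 and 6 in Cy3. Over all tested probes the shares were 7.49% and 9.39%. Of the 6 thalamic calls in Cy3, 3 were probes of Ntng1. With the processed signals the thalamic calls were 2 and 3. All 10 thalamic genes were above background in both channels, with a summed intensity of 40010 to 41230 in Cy5 and 52360 to 59240 in Cy3. The Dcc probes, like this list, were lowest on array 1, with probe A_65_P07978 nearly as low on array 3. Medians of the choroid plexus, erythroid, endothelial, upper-layer and interneuron lists were also lowest on array 1, while those of other marker lists were not. The same held for the members (-0.23), Dcc included, the netrin family and other ligands (-0.41) and the co-receptors and membrane partners (-0.21). The signalling genes downstream of the receptors were lowest on array 3 (-0.04). The part of striatal or thalamic tissue in the Ntn1 and Dcc ratios was not tested.

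**Figure D4:**
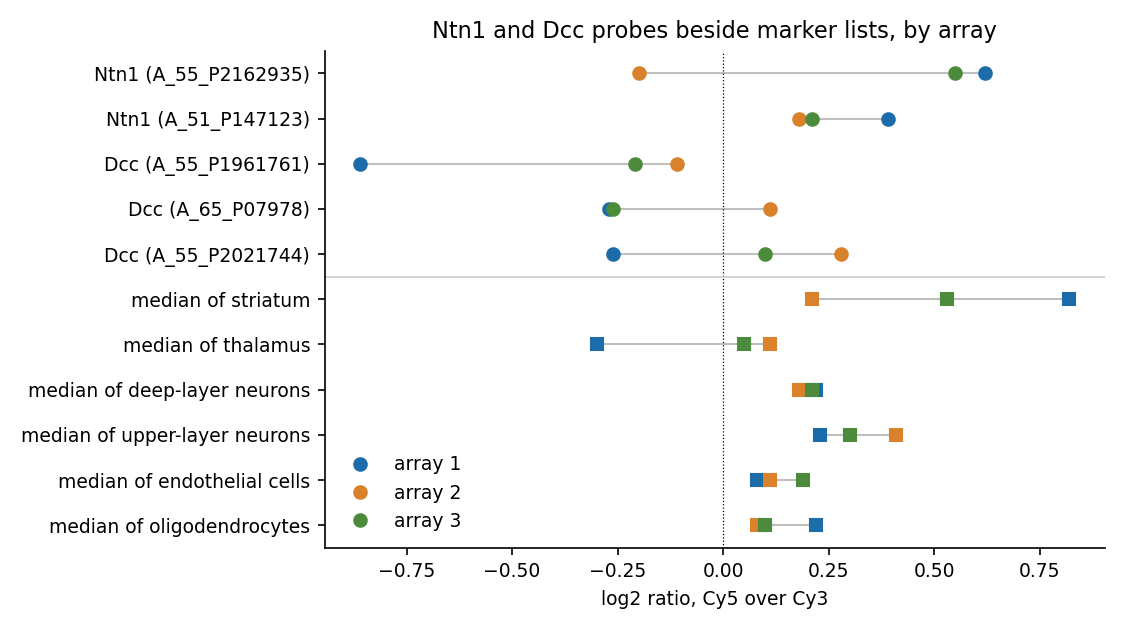
Log2 ratio of Cy5 over Cy3 (x axis) on arrays 1, 2 and 3 (colours) of the Ntn1 and Dcc probes (circles) and the median over tested probes of 6 marker lists (squares). The striatal median is lowest on array 2 (0.21) and the thalamic median lowest on array 1 (-0.30), while deep-layer medians lie between 0.18 and 0.22.

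The wider pathway was read from 69 further genes in 3 lists, with 110 tested probes. Of these, 3 probes were called brighter in Cy5 and 16 in Cy3, and median centring gave 14 and 5. The 19 calls are 17.3% of the 110 probes, close to the 16.9% of all tested probes. By direction, 7.49% of all tested probes were called brighter in Cy5 and 9.39% in Cy3, so the pooled share hides the lean of the 19 calls towards Cy3. The netrin family and other ligands, a list of 11 genes with 18 tested probes, held 0 calls in Cy5 and 7 in Cy3 (unadjusted limma p under 0.05 at 0 and 9). Not all of these genes encode ligands of the receptors above. That is 38.9% of its probes, but 6 of the 7 calls are probes of Flrt3 and Ntng1. With 1 probe per gene 2 of 10 were called, near the 17.1% of all genes, and with median centring 4 of 18 probes. The median ratio of this list was -0.20, against -0.01 for all tested probes, and it stayed below 0 in all 11 alternatives.

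Flrt3, a membrane protein that binds Unc5 receptors and latrophilins, had the smallest adjusted p of the list. At probe A_55_P2110925 it had 12.45, 12.73 and 12.89 log2 units in Cy5, against 13.51, 13.53 and 13.60 in Cy3. The channels were far apart on every array, with a mean log2 ratio of -0.85 ± 0.19 (SD, n = 3 arrays, limma adjusted p = 0.00348), 1.81-fold brighter in Cy3. Its other probes had means of -0.87 and -0.70, and all 3 were called. With median centring the last of these, A_55_P2144556, had -0.43 and did not pass (limma adjusted p = 0.0526).

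Ntng1 encodes netrin-G1, a membrane-anchored relative of netrins that binds Lrrc4c and is known from thalamocortical axons. Its 3 probes were all called brighter in Cy3, with means of -0.58, -0.51 and -0.42. At probe A_51_P213099 it had 12.48, 12.35 and 12.48 log2 units in Cy5, against 13.06, 12.84 and 12.93 in Cy3, a mean ratio of -0.51 ± 0.07 (SD, n = 3 arrays, limma adjusted p = 0.00903). This probe was called in all 11 alternatives. Nell2, a secreted ligand of Robo3, had a mean of -0.38 ± 0.27 at the called probe (limma adjusted p = 0.0481) and -0.46 ± 0.57 at the other, which did not pass. Without array 1 or array 3 the called Nell2 probe had -0.23 or -0.42 and did not pass, and Ntng1 probe A_52_P305658 had -0.45 and did not pass without array 3.

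The co-receptors and membrane partners, 13 genes with 20 tested probes, held 0 calls in Cy5 and 3 in Cy3 (unadjusted limma p under 0.05 at 0 and 8), and their median was -0.13. The 15% called lay near the share of all tested probes. The count was 0 with the processed signals or 1 probe per gene and 1 with median centring. With median centring the list's median was -0.04, against 0.07 for all tested probes. The called probes belonged to 3 genes. Adgrl3, a latrophilin that binds Flrt proteins, had a mean of -0.54 ± 0.34 (limma adjusted p = 0.0299) at a probe above background in Cy5 on 1 array, and -0.10 at its other probe. The processed signals put the called probe at -1.26 without passing (limma adjusted p = 0.0857), so its size is uncertain. Ptprd, a receptor tyrosine phosphatase of presynaptic terminals, had -0.48 ± 0.30 (limma adjusted p = 0.0316) at 1 probe, and between -0.30 and -0.04 at 4 others that did not pass. Lrrc4c, the partner of netrin-G1, had -0.44 ± 0.35 (limma adjusted p = 0.0491), and -0.13 with median centring (limma adjusted p = 0.58). Each of these 3 had its lowest ratio on array 1, and without array 1 none passed, at means of -0.39, -0.33 and -0.25. Without array 3 Adgrl3 and Ptprd did not pass either, both at -0.49.

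The signalling genes downstream of the receptors, 45 genes with 72 tested probes, had a median of 0.00 and calls on both sides, 3 in Cy5 and 6 in Cy3 (unadjusted limma p under 0.05 at 7 and 12). The 12.5% called lay below the share of all tested probes. With median centring this became 14 in Cy5 and 0 in Cy3. Trim9, a ubiquitin ligase that binds DCC, was called at probes of opposite sign, with -0.59 ± 0.30 at A_55_P2073059 (limma adjusted p = 0.0189) and 0.28 ± 0.12 at A_66_P128647 (limma adjusted p = 0.0468). Its remaining probe had 0.15 and did not pass, so the gene has no single direction here. Its relative Trim67 had 0.35 ± 0.10 (limma adjusted p = 0.0248) at 1 probe and -0.06 at the other. Wasf1, which drives actin branching, had -0.36 ± 0.08 (limma adjusted p = 0.0219), and the kinase gene Rock1 -0.38 ± 0.14 (limma adjusted p = 0.0242). With median centring Wasf1 was at -0.03 (limma adjusted p = 0.825). Without array 3 the calls of Trim67, Wasf1 and Rock1 were lost at means of 0.35, -0.33 and -0.41. That of the Trim9 probe above 0 was lost without any 1 array, at 0.24 to 0.35.

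**Figure D5:**
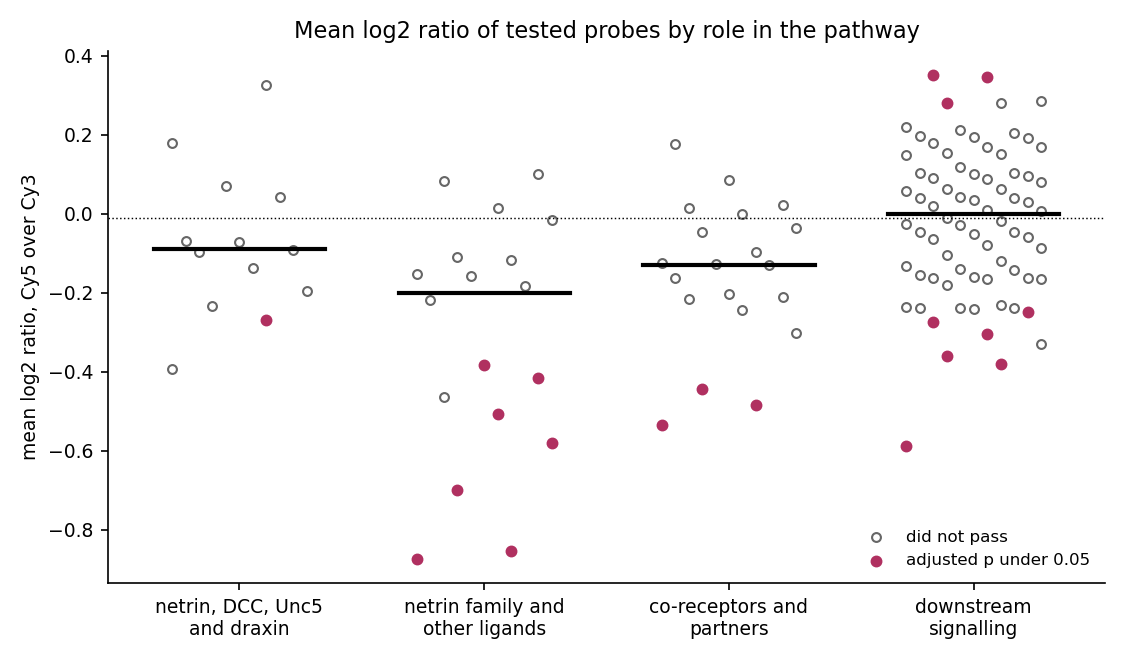
Mean log2 ratio of Cy5 over Cy3 (y axis) of every tested probe of the netrin, DCC, Unc5 and draxin genes and of 3 further lists (x axis, points spread sideways for legibility). Filled points passed a limma adjusted p of 0.05, bars are list medians and the dotted line is the median of all tested probes (-0.01). The lowest points, at -0.87, -0.85 and -0.70, are the Flrt3 probes.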

How the data were processed

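Per the file headers, the deposited scanner files were read by Agilent Feature Extraction on a grid of build mm9 and hold the intensity of each spot in 2 colours. They give medians of spot and local background without normalization, flags, a dye-normalized processed intensity and a deposited log10 ratio of red over green, which was not used. The authors' deposited table gives each spot a log2 fold change, a t score, a log-odds score and a p-value before and after adjustment. The submitters' processing notes name limma, and the table's filter and direction were not given in the sources used here.

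Here the medians were corrected with normexp (offset 50) and each array was normalized by loess in limma 3.58.1 under R 4.3.3, giving control spots no weight and dropping outlier spots. Replicate spots were averaged per probe. The test took the 32981 probes with a value on all 3 arrays and a signal well above background, in 1 channel or both, on 2 or more arrays. The mean log2 ratio of Cy5 over Cy3 was tested against 0 with lmFit and eBayes, two-sided, adjusted by Benjamini-Hochberg over all tested probes and a threshold of 0.05. Channel levels come from loess followed by Aquantile. Names came from RefSeq accessions (27650 probes, assembly GRCm38.p6) or the authors' deposited table (4086), and 23945 probes kept the file's name. The ratio within an array already pairs its samples. The number of arrays limits the precision.

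The members, lists and tests were chosen with earlier results of these data known. The genes named are the 9 members, Brpf1, up to 4 genes per pathway list with the smallest adjusted p past the threshold, up to 3 genes nearest to a called member by the distance over the 3 ratios, and at most 4 markers. The alternatives were an offset of 16, the processed signals, median centring, centring within 50 intensity bins, no filter, a stricter filter, an intensity trend, 1 probe per gene, and leaving out each array in turn. The fit was tested on simulated data.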

Additional observations from a re-analysis of the deposited data

How the results depend on the processing

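The count of called member probes, 1 in the reported fit, was 0 with an offset of 16, with the processed signals and with median centring, where 5, 4 and 2 member probes had an unadjusted limma p under 0.05. It was 2 with the intensity trend and 0 to 2 on leaving out an array. The Neo1 call was lost in 7 of 11 alternatives, with limma adjusted p-values up to 0.349. The array's count of 5568 was 1436 with the processed signals and 2217 to 5704 without 1 array, the lowest without array 3. The pathway count of 19 was 5 with the processed signals, 7 with 1 probe per gene, which tests fewer probes, and 7 to 23 without 1 array. With median centring Dcc probe A_55_P1961761 turned to 0.15 and Unc5c probe A_52_P380301 to 0.02. Without 1 array, Dcc probe A_55_P2021744 ranged from -0.08 to 0.19 and Draxin probe A_55_P1997676 from -0.02 to 0.14, with the negative values without array 2. The cause was not tested. The other member probes tested kept their sign in every alternative run. Signal near background limits the dim probes of Ntn1, Dcc and Unc5d, and the 3 arrays limit all.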
